A study of Mus musculus with 10 samples.

Results

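Amino acids enter T cells through carriers of the solute carrier (Slc) families, and 10 genes of such carriers were followed here in CD4+ splenocytes after experimental sepsis. They were Slc7a5, Slc3a2, Slc7a6, Slc7a7, Slc7a11, Slc1a5, Slc38a1, Slc38a2, Slc1a4 and Slc43a2. The members were every probe set whose only annotated gene symbol was one of these names: 21 probe sets of the 45101 in the table, for 10 of its 18193 named genes. The rule itself uses names and no measured value.

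All mice were C57Bl/6, 8 to 12 weeks old, and their spleens were collected 6 h after an operation under halothane. Cecal ligation and puncture (CLP), done in 5 mice, leaks gut bacteria into the abdomen and is used as a model of sepsis. Sham laparotomy, done in the other 5, opened the abdomen only. The labels name no genetic change in either group, and each mouse gave 1 Affymetrix array. CD4+ cells were enriched by magnetic removal of other cells, to about 91% per the series description, so other spleen cells remained. Copies of the RNA were made in 2 rounds of small-sample amplification before labelling. Values below are log2 intensities, with all arrays brought to the same median and a floor of 6.14 under which signals were not read. A probe set's level depends on its own probes, so levels were compared between arrays and never between genes. In bulk arrays, fewer cells of a type and less RNA per cell cannot be told apart.

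Array medians lay between 127.6 and 142.4 before scaling. The arrays fell into a pair of classes by the 18S ribosomal RNA control signal: 6 arrays (CLP 1, 3 and 5; sham 1, 3 and 5) read 3134 to 5178, and 4 arrays (CLP 2 and 4; sham 2 and 4) read 194.3 to 268.4. Both classes held both groups equally, so the fits were also made with this class as a block, and results from them are given where stated. Among CD4 T cell markers, Cd4 and Cd3e were measured in all arrays (CLP minus sham -0.12 for each). The 9 tested markers were lower by mean after CLP, with 0 called by limma and 4 at an unadjusted p under 0.05 (12.2% of all genes). Thy1 (-0.79 ± 0.27), Trat1 (-0.72 ± 0.16), Cd5 (-0.69 ± 0.17) and Cd3g (-0.49 ± 0.27) were called with the 18S block, where 3.37% of all genes were. The list's summed intensity was 22029.5 to 24299.5 in CLP arrays and 24334.7 to 30292.5 in sham arrays. These ranges did not overlap but nearly touched. Summed NK cell markers did not overlap either, at 2895 to 3038 in CLP arrays against 3374 to 3928 in sham arrays. Of the 5 tested, 3 were lower and 2 higher by mean, the latter Gzma (0.34 ± 0.22) and Prf1 (0.07 ± 0.23). By limma 0 were called, and with the 18S block 1 was, Klrd1 (-0.54 ± 0.17). Monocyte and macrophage markers summed to 3885 to 4744 in CLP arrays and 3276 to 4961 in sham arrays, a sum in which Csf1r was the brightest (0.01 ± 0.16). Within that list Vcam1 differed by -1.20 ± 0.32, or by -0.42 in the mean over its probe sets. Cd14 differed by 0.72 ± 0.21 and was called with the 18S block, while Lyz2 and C1qa lay near the floor. Of 5 tested erythroid genes, 3 were higher and 2 lower by mean, with a median of 0.006 and 0 called. Slc4a1 and Alas2 differed by 1.42 ± 0.56 and 0.95 ± 0.45, Epb42 by 0.006 ± 0.09, Klf1 by -0.11 ± 0.20 and Tfrc by -0.13 ± 0.16. Their sums overlapped, at 3277 to 8343 in CLP arrays and 3177 to 5167 in sham arrays. The sums of CD8 T cell, B cell, plasma cell, neutrophil, dendritic cell, platelet and stromal markers overlapped as well. The part of these cell markers in the transporter values was not tested.

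As background, the carriers work in groups. Slc3a2 encodes the glycoprotein CD98 heavy chain, which pairs by a disulphide bond with a light chain of the Slc7 family and brings it to the cell surface. The light chain sets what is carried: large neutral amino acids for Slc7a5 (LAT1), cationic against neutral amino acids for Slc7a7 and Slc7a6, and cystine against glutamate for Slc7a11. Slc1a5 (ASCT2), Slc38a1 and Slc38a2 bring in glutamine and other small neutral amino acids, Slc1a4 (ASCT1) exchanges alanine, serine and cysteine, and Slc43a2 (LAT4) lets large neutral amino acids through without sodium. Activated T cells are known to raise Slc7a5 and Slc3a2, and amino acid shortage raises several of these genes through the factor ATF4, which binds a composite site called CARE.

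Promoter windows, the 250 bases before an annotated transcript start, were read from RefSeq (GRCm38.p6) and were found for 7 of the 10 genes. Slc3a2, Slc7a7 and Slc7a11 are shown because Slc3a2 is the heavy chain shared by the light chains, and because Slc7a7 and Slc7a11 hold the CARE letters TGATGNAAN. Capitals mark CARE matches on either strand, and the windows end at the base before the start.
Slc3a2, chr19:8713898-8714147, minus strand: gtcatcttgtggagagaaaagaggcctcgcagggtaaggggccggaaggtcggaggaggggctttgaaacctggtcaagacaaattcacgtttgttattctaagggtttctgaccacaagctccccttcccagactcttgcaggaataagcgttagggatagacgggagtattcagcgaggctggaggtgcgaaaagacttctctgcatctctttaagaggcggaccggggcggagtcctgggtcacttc
Slc7a7, chr14:54417945-54418194, minus strand: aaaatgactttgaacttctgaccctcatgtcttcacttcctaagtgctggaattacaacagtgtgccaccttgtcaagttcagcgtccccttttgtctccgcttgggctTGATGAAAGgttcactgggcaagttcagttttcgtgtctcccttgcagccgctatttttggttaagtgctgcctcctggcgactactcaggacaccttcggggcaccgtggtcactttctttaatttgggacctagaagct
Slc7a11, chr3:50443614-50443863, minus strand: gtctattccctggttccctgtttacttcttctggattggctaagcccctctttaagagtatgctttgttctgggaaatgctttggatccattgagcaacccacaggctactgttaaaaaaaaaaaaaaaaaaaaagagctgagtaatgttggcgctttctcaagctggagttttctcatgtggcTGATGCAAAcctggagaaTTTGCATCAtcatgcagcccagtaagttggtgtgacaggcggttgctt
The Slc7a11 window held 2 CARE matches, beginning 66 bases before the start on the printed strand and 48 bases before it on the other strand, and the Slc7a7 window held 1, 141 bases before the start. The window of another Slc7a7 start held a separate CARE match, 243 bases before that start. CARE was present in 3.44% of all 32851 windows searched, and in at least 1 window of 3.89% of 27025 genes. The E-box CACGTG, the site of Myc and its partners, was in none of the windows of the 7 genes. It was in 6.02% of all windows and found for 6.86% of all genes. The NRF2 element TGACNNNGC was found for 2 of the 7 genes, Slc38a2 and Slc7a6. It was in 10.2% of all windows and found for 11.5% of all genes. These matches describe letters and not binding.

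None of the 10 transporter genes passed the test between CLP and sham mice. Of the 21 probe sets, 18 were bright enough to be tested, and 0 of 18 were called by limma at an adjusted p under 0.05, where 0.703% of the 27022 probe sets tested were called (0.167% higher and 0.537% lower). None reached an unadjusted p under 0.05 either, against 10.9% of all probe sets, and CLP and sham arrays overlapped in all 18, where 2.97% of all probe sets did not overlap. The lowest unadjusted p was 0.0589, and adjusted p-values ran from 0.487 to 0.999. By group means 13 probe sets were lower and 5 higher after CLP, with a median difference of -0.07 on the log2 scale beside 0.005 over all probe sets tested. With 1 brightest probe set per gene, 0 of 10 genes were called (0.979% of 13073 genes were), 6 were lower and 4 higher by mean, and the median was -0.10 beside 0.0046 over all genes.

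**Figure D1:**
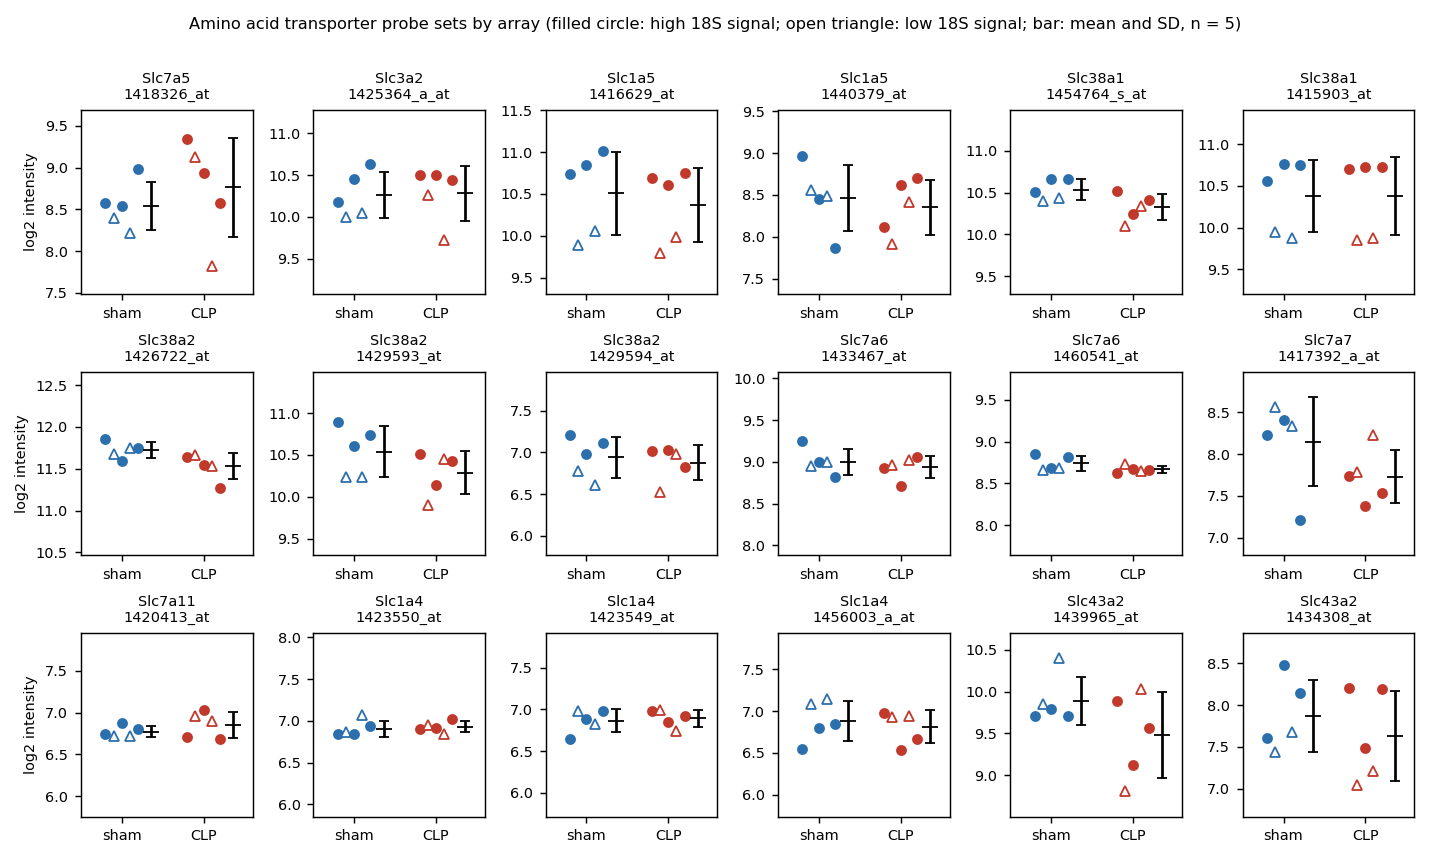
Log2 intensity (vertical axes) of each tested transporter probe set in every CLP and sham array, 1 point per mouse, 5 mice a group; circles are arrays of high and triangles of low 18S signal, and bars give the mean and SD. CLP and sham points overlap in all 18 probe sets.

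The 95% confidence intervals say how large a difference in signal could have been missed. In all 18 probe sets the interval lay inside a 2-fold change in either direction, and in 12 of them inside a 1.5-fold change. Among the latter were the dim probe sets of Slc7a11, Slc1a4 and Slc38a2, with means of 6.81 to 6.92, not far above the floor of 6.14. For these the interval bounds the signal, and how far it bounds the transcript was not tested. With the 18S class as a block, 14 of 18 intervals lay inside 1.5-fold, and the median standard error of the members fell from 0.150 to 0.102. Over all probe sets tested it fell with the block from 0.127 to 0.109. In that fit 0 members were called (2.66% of all probe sets), and 1 reached an unadjusted p under 0.05 (15.4% of all).

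**Figure D2:**
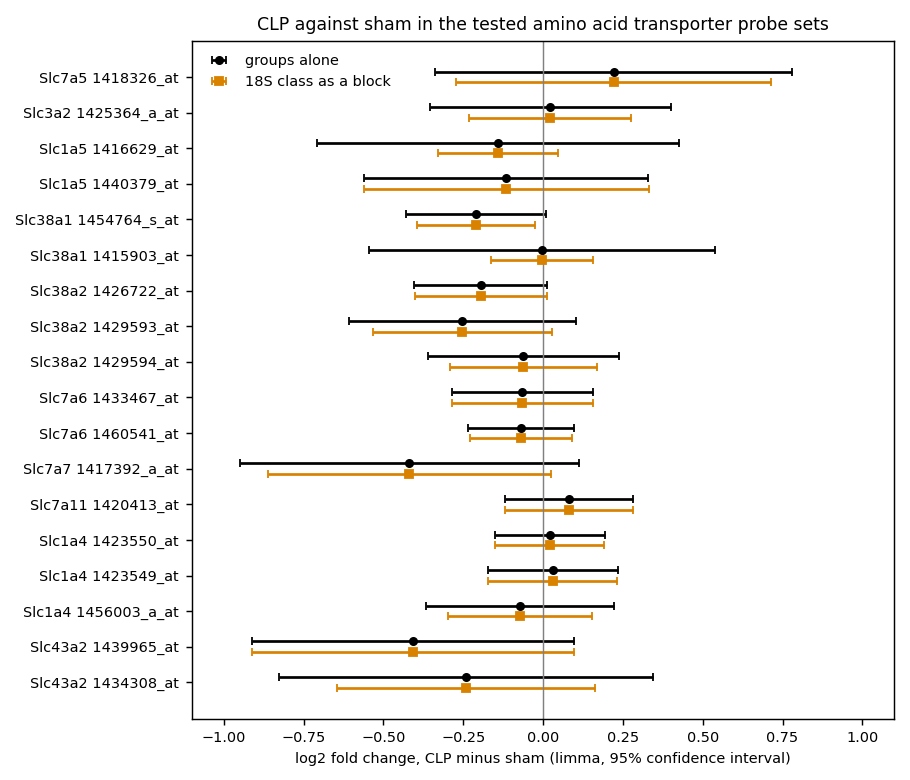
CLP minus sham difference in log2 intensity (horizontal axis) with its 95% confidence interval for each tested transporter probe set, from limma with the groups alone (circles) and with the 18S class as a block (squares). Every interval lies inside a 2-fold change, which is 1 unit on this axis, and with the groups alone every interval crosses 0.

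The heavy chain, Slc3a2, had near-equal means after CLP and sham surgery. Its probe set read 10.50, 10.26, 10.50, 9.72 and 10.44 in CLP arrays 1 to 5 and 10.18, 10.003, 10.45, 10.04 and 10.63 in sham arrays 1 to 5. The lowest array was CLP 4 and the highest sham 5, so the sham range began inside the CLP range and ended above it. The difference was 0.02 ± 0.17 (SE; limma adjusted p = 0.987), and its interval ran from a 1.28-fold fall to a 1.32-fold rise.

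Slc7a5, the light chain for leucine and other large neutral amino acids, had the highest positive difference of the members, without passing the test. CLP arrays read 9.35, 9.12, 8.94, 7.83 and 8.58, and sham arrays 8.57, 8.39, 8.54, 8.21 and 8.98. CLP 1 and 2 lay above every sham array, whereas CLP 4 was the lowest of all 10. The difference was 0.22 ± 0.26 (limma adjusted p = 0.889), with an interval from a 1.26-fold fall to a 1.72-fold rise, and it stood at 0.46 without CLP 4 and at 0.08 without CLP 1. Within the high 18S arrays it was 0.26, and within the low ones 0.17.

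The light chains that exchange cationic for neutral amino acids were Slc7a6 and Slc7a7. Slc7a6 probe set 1460541_at lay between 8.63 and 8.74 in CLP arrays and between 8.66 and 8.85 in sham arrays (-0.07 ± 0.08, limma adjusted p = 0.880). The brighter, 1433467_at, varied more, between 8.71 and 9.05 in CLP arrays and between 8.82 and 9.25 in sham arrays (-0.07 ± 0.10). The intervals of these probe sets allowed a fall of at most 1.18-fold and 1.22-fold. Slc7a7 had the lowest mean difference of the members. Its tested probe set read 7.74, 7.78, 7.37, 8.22 and 7.53 in CLP arrays and 8.23, 8.56, 8.40, 8.34 and 7.22 in sham arrays. Sham 2, 3 and 4 lay above all CLP arrays, sham 1 was level with the highest of them, CLP 4, and sham 5 lay below all of them. The difference was -0.42 ± 0.24 (limma adjusted p = 0.626) with an interval reaching a 1.93-fold fall, and it was -0.65 without sham 5 (adjusted p = 0.119). Slc7a7 is known to be expressed in macrophages as well. Their summed markers overlapped between the groups, while Vcam1 of that list was lower by mean and Cd14 higher, as given above, and their part in the Slc7a7 difference was not tested. The second Slc7a7 probe set was at the floor in 7 of 10 arrays and was not tested.

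Slc7a11, the cystine carrier, lay close to the floor. The tested probe set read 6.70, 6.96, 7.03, 6.90 and 6.68 in CLP arrays and 6.75, 6.72, 6.87, 6.72 and 6.81 in sham arrays. CLP 2, 3 and 4 lay above every sham array and CLP 1 and 5 below every one, and the difference was 0.08 ± 0.09 (limma adjusted p = 0.885). The second probe set was at the floor in all 10 arrays, with deposited intensities of 16.1 to 33.1, and was not tested.

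Slc1a5, the main glutamine exchanger of activated T cells, was measured by a pair of probe sets. The brighter of them (1416629_at) read 10.69, 9.80, 10.61, 9.98 and 10.75 in CLP arrays and 10.74, 9.89, 10.84, 10.05 and 11.01 in sham arrays. In both groups arrays 2 and 4 lay lowest, near 10, and the others lay above 10.6. The difference between groups was -0.14 ± 0.26 (limma adjusted p = 0.941). With the 18S class as a block the standard error fell to 0.08, and the interval then ran from -0.33 to 0.05. The dimmer probe set (1440379_at) read 8.11, 7.91, 8.62, 8.41 and 8.70 against 8.96, 8.56, 8.45, 8.49 and 7.87, with a difference of -0.12 ± 0.20.

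Slc38a1, a sodium-coupled importer of glutamine, gave the lowest p of the members in 1 probe set and a difference near 0 in the other. Probe set 1454764_s_at read 10.52, 10.11, 10.25, 10.34 and 10.41 in CLP arrays and 10.51, 10.40, 10.66, 10.44 and 10.67 in sham arrays. Of the 25 pairs of a CLP and a sham array, CLP was the higher in 4. The difference was -0.21 ± 0.10 (limma adjusted p = 0.487, and 0.251 with the 18S block). Probe set 1415903_at read 10.70, 9.85, 10.73, 9.88 and 10.72 in CLP arrays and 10.56, 9.95, 10.76, 9.87 and 10.75 in sham arrays. Here arrays 2 and 4 of both groups again lay apart from the rest. With the 18S block this probe set had the interval -0.16 to 0.16, and a sign is not given for its difference because it turned between scalings. The suffix _s_at marks a probe set whose probes can match more than 1 transcript.

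Slc38a2, the importer that cells raise when amino acids are short, was lower by mean after CLP in its 3 probe sets, none of them called. The brightest read 11.63, 11.67, 11.55, 11.54 and 11.27 in CLP arrays and 11.86, 11.68, 11.60, 11.75 and 11.75 in sham arrays. CLP was the higher in 2 of 25 pairs of arrays. The difference was -0.20 ± 0.10 (limma adjusted p = 0.505). The second read 10.52, 9.90, 10.14, 10.45 and 10.43 against 10.90, 10.23, 10.61, 10.23 and 10.73, with a difference of -0.25 ± 0.16, and the dimmest differed by -0.06 ± 0.14, a sign that turned with array weights. The intervals of the brighter pair reached falls of 1.32-fold and 1.52-fold.

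Slc1a4 and Slc43a2 completed the set. The 3 probe sets of Slc1a4 were dim, with CLP means of 6.81 to 6.93 and sham means of 6.86 to 6.91, and differed by -0.07 to 0.03. The brighter probe set of Slc43a2 (1439965_at) read 9.89, 8.81, 9.12, 10.03 and 9.57 in CLP arrays and 9.71, 9.85, 9.80, 10.40 and 9.71 in sham arrays. CLP 2, 3 and 5 lay below every sham array and CLP 1 and 4 within the sham range. The difference was -0.41 ± 0.23 (limma adjusted p = 0.609), with an interval reaching a 1.88-fold fall. It was -0.24 without CLP 2, -0.21 within the high 18S arrays and -0.70 within the low ones. The second (1434308_at) read 8.20, 7.05, 7.49, 7.21 and 8.19 against 7.60, 7.44, 8.48, 7.68 and 8.15, a difference of -0.24 ± 0.27, or -0.09 without sham 3. The last Slc43a2 probe set was at the floor in 6 arrays and was not tested.

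Some transporter probe sets differed between the 18S classes. Comparing the 6 high with the 4 low 18S arrays, with the surgery group in the model, 4 of the 18 probe sets were called, all higher in the high class, where 15.1% of all probe sets were called (10.1% higher and 4.98% lower). For Slc1a5 1416629_at the high arrays lay between 10.61 and 11.01 and the low arrays between 9.80 and 10.05, a difference of 0.84 ± 0.09 or 1.79-fold (limma adjusted p = 0.000165). For Slc38a1 1415903_at they lay between 10.56 and 10.76 and between 9.85 and 9.95, a difference of 0.81 ± 0.07 or 1.76-fold. In both, the classes did not overlap. The other calls were Slc43a2 1434308_at (0.67 ± 0.19, adjusted p = 0.0345) and Slc3a2 (0.44 ± 0.12, adjusted p = 0.0288), in which the classes overlapped.

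**Figure D3:**
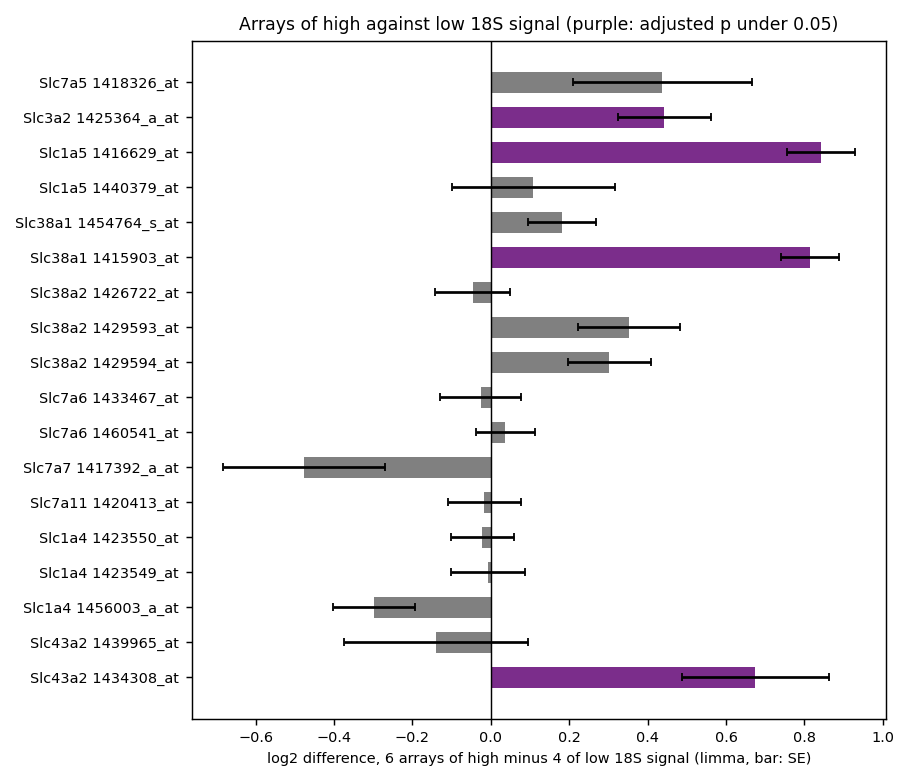
Log2 difference of the 6 arrays of high minus the 4 of low 18S signal (horizontal axis) for each tested transporter probe set, with the standard error from limma as the error bar and called probe sets in purple. Slc1a5 1416629_at (0.84) and Slc38a1 1415903_at (0.81) have long bars, while the other probe sets of these genes reach 0.11 and 0.18.

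Some probe sets of the same gene differed between the 18S classes by unlike amounts. The difference between classes was 0.11 ± 0.21 in Slc1a5 1440379_at, 0.18 ± 0.09 in Slc38a1 1454764_s_at and -0.14 ± 0.23 in Slc43a2 1439965_at, none of them called. Because both probe sets of a gene were read from the same array, the log2 value of the first minus that of the second could be compared between classes with an exact two-sided permutation test over 210 arrangements, adjusted over the 10 pairs of tested member probe sets. For Slc1a5, 1416629_at minus 1440379_at was 2.32 in the high and 1.59 in the low class, a shift of 0.73 (exact p = 0.0190, adjusted p = 0.0381). For Slc38a1, 1415903_at minus 1454764_s_at was 0.20 in the high and -0.43 in the low class, a shift of 0.63 (exact p = 0.00952, the smallest that the arrangements can give; adjusted p = 0.0381). For Slc43a2, 1434308_at minus 1439965_at was -1.61 in the high and -2.43 in the low class, a shift of 0.81 (exact p = 0.0190, adjusted p = 0.0381). For Slc38a2, the brightest minus the second probe set was 1.05 in the high and 1.45 in the low class (exact permutation, adjusted p = 0.0476). In Slc1a4, the dim probe set 1456003_a_at was lower in the high class by 0.30, itself not called (limma adjusted p = 0.0800). This was further than in both others (adjusted p = 0.0381 each, exact permutation). The remaining 4 pairs did not pass: 1 of Slc7a6 (adjusted p = 0.75), 1 of Slc1a4 (0.867) and 2 of Slc38a2 with its dimmest probe set (0.068 and 0.772), all by exact permutation. The share of such pairs passing over all genes was not computed, so whether the result is particular to the transporters is not known. Pairs within Slc38a2 and within Slc1a4 share probe sets and are not independent. What sets the 18S classes apart was not tested.

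Heavy and light chains were then compared across the 10 arrays, since the light chains share Slc3a2. Slc7a5 followed Slc3a2: Pearson's r was 0.80 (permutation p = 0.00702, adjusted p = 0.0281 over 4 pairs) and Spearman's rho 0.79 (permutation p = 0.00878, adjusted p = 0.0351). Without CLP 4 and sham 2, the farthest from the median of Slc3a2, r was 0.58 (exact permutation p = 0.137). Leaving out the outer arrays narrows the range and can lower r by itself, so what the relation rests on was not shown. On residuals from the group means r was 0.82, and from group and 18S class together 0.79. Within the 6 high 18S arrays r was 0.53 (exact permutation p = 0.228) and rho 0.77, and the 4 low arrays were too few.

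Slc7a7 ran opposite to Slc3a2, with r = -0.71 (permutation p = 0.0191, adjusted p = 0.0381) and rho = -0.68 (permutation p = 0.0339, adjusted p = 0.0678). Without the same 2 arrays r was -0.71 (exact permutation p = 0.0512), within the high 18S arrays -0.68 (exact permutation p = 0.161), and on residuals from group and 18S class -0.64. Slc7a6 gave r = -0.44 (permutation p = 0.204, adjusted p = 0.272; rho = -0.60, permutation p = 0.0739), -0.84 within the high 18S arrays (exact permutation p = 0.0667) and -0.62 on residuals from group and 18S class. Slc7a11 gave r = 0.05 (permutation p = 0.921; rho = 0.006). Neither passed. All probe sets of an array share its labelling and scaling. Slc3a2 was called between the 18S classes (0.44 ± 0.12), and Slc7a7 differed by -0.48 ± 0.21, not called. The permutations over 10 arrays took no account of these classes, and no p-value was computed on residuals. How many other genes had an r this large with Slc3a2 was not counted.

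**Figure D4:**
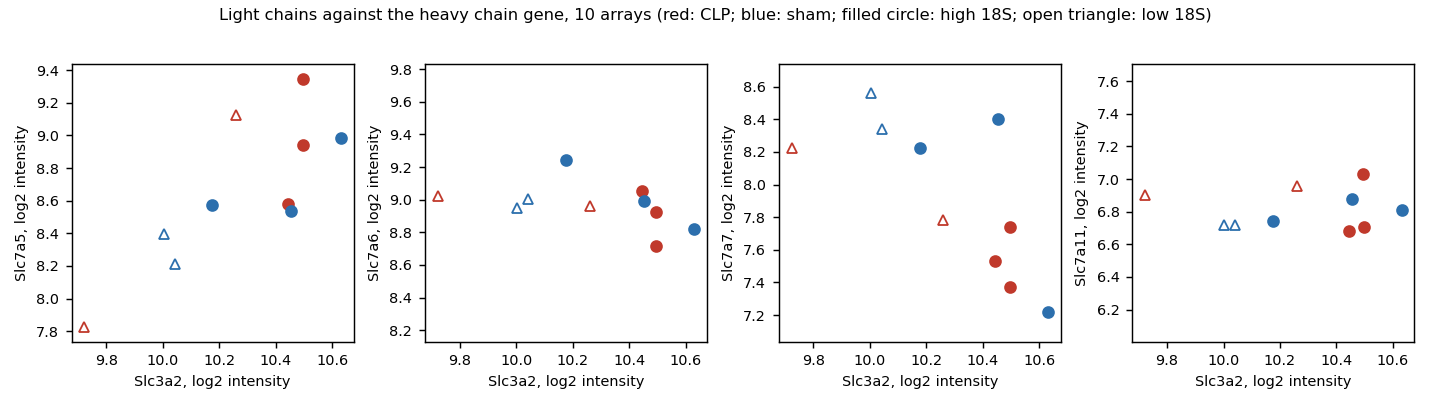
Log2 intensity of each light chain (vertical axes) against that of the heavy chain Slc3a2 (horizontal axes) in the 10 arrays, 1 point per array, marked by surgery group and 18S class. Slc7a5 goes up with Slc3a2 (r = 0.80), Slc7a7 goes down (r = -0.71), and Slc7a6 and Slc7a11 did not pass the test.

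The 5 named genes whose pattern over the 10 arrays was most like that of Slc3a2, by Pearson's r, were Oaz1 (0.986), Dera (0.981), Ttc7 (0.979), Snrpf (0.973) and Vps33a (0.973). Oaz1 encodes an antizyme that limits polyamine synthesis and Snrpf a core protein of the spliceosome. Of the 13073 genes tested, they were the highest once the members and clone-like and predicted names were left out, and are given as a description. None of them was called between CLP and sham, and their high minus low 18S differences ran from 0.19 for Oaz1 to 0.89 for Snrpf.

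Of the other amino acid transporters on a list of 27 genes, 22 were tested, 0 were called by limma (2 at an unadjusted p under 0.05), and the median difference was -0.10, with 17 lower and 5 higher by mean. The lowest p-values were those of Slc15a4, a lysosomal histidine and peptide carrier (-0.44 ± 0.14, limma adjusted p = 0.172), and Slc38a6 (-0.32 ± 0.11, adjusted p = 0.240). The mean over the probe sets of Slc15a4 differed by -0.16. Next were the aromatic amino acid carrier Slc16a10 (-0.31 ± 0.16) and the glutamine carrier Slc38a5 (0.60 ± 0.30). The list's summed intensity was 10713 to 12189 in CLP arrays and 11786 to 12684 in sham arrays.

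The pathways that act on the transporters were given by lists as well. Of the amino acid starvation response, 0 of 19 tested genes were called by limma (1 at an unadjusted p under 0.05), with a median near 0. Atf4, its central factor, differed by -0.19 ± 0.09 (adjusted p = 0.453) and Cebpg, its dimer partner, by -0.80 ± 0.21 (adjusted p = 0.102). With the 18S block Cebpg passed (adjusted p = 0.0275), and the mean over its probe sets differed by -0.39. Stc2 (0.18 ± 0.09) and Psph (-0.22 ± 0.15) did not pass.

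Of the mTORC1 genes that sense amino acids, 1 of 31 rose and 0 fell (0.291% and 0.688% of all genes), and 9 had an unadjusted p under 0.05 (12.2% of all genes), 3 of them higher and 6 lower by mean. The called gene was Rragd, 1 of the Rag GTPases that bring mTORC1 to the lysosome. It read 8.75, 9.19, 8.61, 8.89 and 9.02 in CLP arrays and 7.98, 8.14, 8.17, 8.14 and 8.58 in sham arrays, so that every CLP array lay above every sham array, as 3.13% of all genes lay wholly to either side. The rise was 0.69 ± 0.13 or 1.61-fold (limma adjusted p = 0.0367 over genes, 0.0479 over probe sets and 0.0219 over genes with the 18S block, where 3.37% of genes were called). The call was lost in each fit without CLP 2, 3, 4 or 5 or without sham 1, 2, 3 or 4 (adjusted p from 0.0503 to 0.120), and its 2 other probe sets were not tested. Nprl2, of the GATOR1 complex that restrains mTORC1, differed by -0.26 ± 0.09 (adjusted p = 0.246), Sesn3, a sestrin, by -0.26 ± 0.09 (adjusted p = 0.246) and Mlst8, an mTOR subunit, by 0.21 ± 0.08 (adjusted p = 0.333), with its CLP arrays above all sham arrays.

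Cytosolic aminoacyl-tRNA synthetases, which load the imported amino acids onto tRNA, had 0 of 18 genes called by limma (1 at an unadjusted p under 0.05) and a median of 0.06. Vars (0.52 ± 0.20, adjusted p = 0.297), Iars (-0.31 ± 0.14), Yars (-0.19 ± 0.10) and Aars (0.32 ± 0.19) had the lowest p-values. Of genes that use glutamine and other amino acids, 0 of 17 were called (1 at an unadjusted p under 0.05), with 14 higher by mean and a median of 0.10. Odc1, the first enzyme of polyamine synthesis, differed by 0.41 ± 0.12 (limma adjusted p = 0.144), glutamine synthetase Glul by 0.24 ± 0.11, Gclc by 0.24 ± 0.13 and Glud1 by -0.17 ± 0.10.

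Of 10 regulators of the transporters' expression and turnover, 0 were called by limma (1 at an unadjusted p under 0.05), with a median of 0.07. Hif1a, the hypoxia factor, differed by 0.48 ± 0.17 (adjusted p = 0.244), the oxidative stress factor Nfe2l2 by -0.30 ± 0.16, Txnip by 0.44 ± 0.25 and Bach1, which opposes Nfe2l2, by 0.15 ± 0.08.

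**Figure D5:**
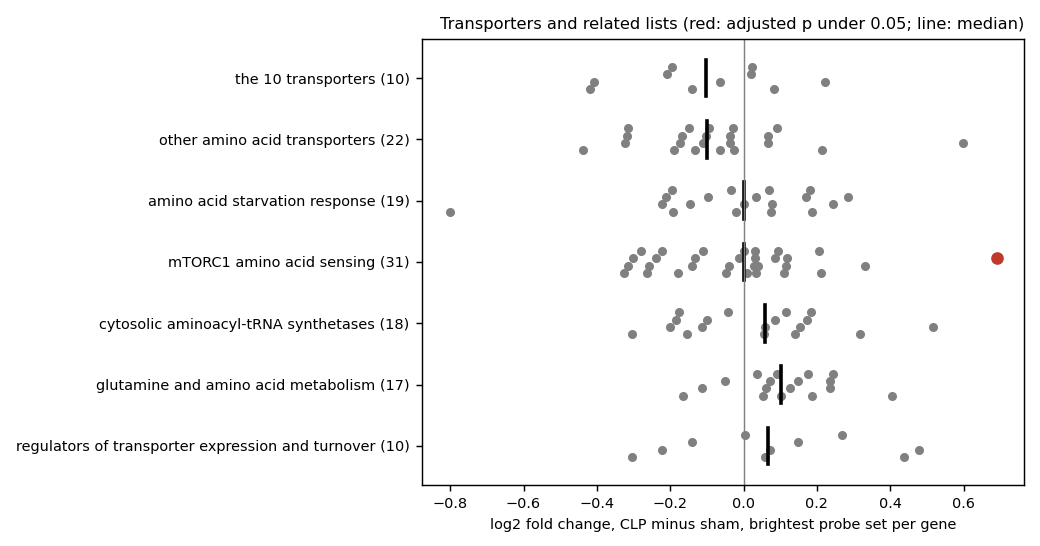
CLP minus sham difference in log2 intensity (horizontal axis) of each tested gene, by its brightest probe set, for the 10 transporters and 6 related lists, with the number of genes in brackets and a bar at each median. Rragd, at 0.69, is the point past the threshold.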

How the data were processed

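RNA of CD4+ splenocytes from 5 CLP and 5 sham mice was read on 1 array per mouse. The authors deposited linear intensities, 1 per probe set and array, from software and scaling not given in the sources used here. Arrays were scaled here to the same median, and log2 was taken after raising values under the 25th percentile (70.4) to that floor. Controls and probe sets whose mean lay under the 40th percentile were dropped, leaving 27022, with 0.134% of their values at the floor. CLP and sham were compared in R 4.3.3 with limma 3.58.1 (lmFit and eBayes), with Benjamini-Hochberg adjustment over all probe sets, or over 13073 genes by brightest probe set, at a threshold of 0.05. Of the probe sets, 64 were controls, 34945 had 1 symbol in the platform annotation, 932 several and 9160 none; 204 named ones had no match in RefSeq. Sham titles all give replicate 1, so their suffix served as the number. The source label of every array, sham arrays included, names an individual mouse.

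The members and lists were chosen with earlier results of these data known. Named were all members, up to 4 genes of lowest p and every called gene of each pathway list, and the 5 genes most like Slc3a2, leaving out clone-like names; cell markers and other genes were named after their values were seen. The 18S split, at an intensity of 1000, was also known from earlier results, and the contrast between its classes and the comparison of probe set pairs were added after seeing the data. Correlations used 100000 permutations at 10 arrays and exact ones below (scipy 1.17.1), and figures matplotlib 3.10.9. Tested on simulated data with 200 of 27022 probe sets changed, the fit recovered 61.2% of those changed 1.5-fold, 91.0% at 2-fold and 97.0% at 3-fold, and 5.68% of its calls were false; the simulation held no 18S classes. The number of arrays limits the precision. Alternatives covered scaling, floor, filter, variance model, array weights, 18S class, replicate block and leaving out each array.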

Additional observations from a re-analysis of the deposited data

Results flagged for a closer look

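Among the 38 groups of 5 arrays checked for a value far from the rest (the 18 tested member probe sets and Rragd, in CLP and in sham arrays), 2 had such a value, and chance flags about 1 in 20 groups. In Slc7a7 probe set 1417392_a_at, sham 5 read 7.217 on the log2 scale, and the nearest sham array read 8.225. In Slc43a2 probe set 1439965_at, sham 4 read 10.4, and the nearest sham array read 9.854. Both arrays were kept in all comparisons, other than the fits that leave out each array.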

How the results depend on the processing

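In 22 alternative fits, 0 of the member probe sets were called in any, and the lowest adjusted p of a member was 0.119, without sham 5. Of 391 values of member probe sets under these alternatives, 361 kept their direction and 30 turned it, all in differences that were not called. Slc38a1 1415903_at became 0.0264 with quantile normalization, 0.00677 unscaled and 0.169 with array weights. With array weights Slc1a5 1416629_at was 0.0159 and Slc38a2 1429594_at 0.00927. Within the high 18S arrays Slc1a5 1440379_at was 0.0486, Slc38a1 1415903_at 0.0272 and Slc7a11 1420413_at -0.00605. Within the low 18S arrays Slc3a2 was -0.0315, Slc38a2 1429594_at 0.0562, Slc7a6 1433467_at 0.0184 and 1460541_at 0.0212, Slc1a4 1423550_at -0.0637 and 1423549_at -0.0397, and the gene Psph 0.0293. Leaving out each array gave -0.0420 to 0.163 for Slc3a2, -0.295 to 0.00103 for Slc1a5 1416629_at, -0.265 to 0.00844 for Slc1a5 1440379_at, -0.130 to 0.128 for Slc38a1 1415903_at, -0.143 to 0.0243 for Slc38a2 1429594_at, -0.00211 to 0.0602 for Slc1a4 1423550_at and -0.0255 to 0.0690 for Slc1a4 1423549_at. The cause was not tested.

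Over all probe sets, 45 were called higher and 145 lower. The counts were 0 and 3 with no filter (45037 probe sets tested), 154 and 354 with array weights, 175 and 543 with the 18S block, and 0 and 0 within the high and within the low 18S arrays, where fewer arrays entered. Leaving out each array gave 0 to 123 higher and 4 to 384 lower, lowest without sham 3 and highest without CLP 1. The replicate block gave 90 higher and 158 lower, and 0 members called; same-numbered arrays deviated together with r from 0.063 to 0.582, and not every array matched its own number best, so the numbers were not taken as pairs, although same-numbered arrays always fell in the same 18S class. Rragd passed in 12 of 23 alternatives, with a difference above 0 in all 23; it missed with no filter (adjusted p = 0.106) and within the high and low 18S arrays. The smallest differences are limited by the number of arrays, and 3 member probe sets near the floor could not be read.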
